A study of Mus musculus with 6 samples.

Results

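The matrix metalloproteinases (MMPs), the ADAMTS and ADAMTS-like proteins and the tissue inhibitors of metalloproteinases (TIMPs) were followed through the reprogramming of mouse tail-tip skin fibroblasts into cells described as cardiac progenitors. Members were taken by gene symbol, namely Mmp, Timp, Adamts or Adamtsl followed by a number, and in the Mmp genes optionally a letter. The rule found 51 of the 49315 genes listed in the count table, comprising 23 Mmp genes, 4 Timp genes, 19 Adamts genes and 5 Adamtsl genes. It used no measured value. Reads were counted for 49 of the 51 in at least 1 library, and Mmp7 and Mmp20 were at 0 in all 6.

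The fibroblast group (2 libraries, day 0) was wild type and had received negative lentiviral vectors. The early group (2 libraries, day 7) was wild type and had received CRISPRa vectors of the SAM type, a system in which a Cas9 without cutting activity brings transcriptional activators to promoters. The late group (2 libraries, day 22) was wild type, had received CRISPRa vectors and had passed through colony isolation, so that its libraries hold only cells that formed colonies. All 3 groups started from tail tip skin. The labels call early replicate 1 early reprogrammed and early replicate 2 partially reprogrammed, and call the cells of both early libraries fibroblasts. The strain, the age, the number of animals and the targets of the vectors are left unstated in the labels.

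MMPs are zinc-dependent enzymes that cut collagens, gelatin, proteoglycans and other extracellular proteins. Most are secreted as inactive precursors, some are held at the cell surface, and TIMPs block the active enzymes. ADAMTS enzymes are secreted relatives that cut large proteoglycans such as versican and aggrecan, process procollagens or act on fibrillin-rich microfibrils, while ADAMTS-like proteins carry the matrix-binding parts without a protease. In skin many of these genes are expressed by fibroblasts and by incoming macrophages, and in the developing heart several act on the matrix of the valves and cushions.

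Total counts ranged from 20172874 to 40122999 per library, so that the floor used here, 3 counts, amounted to between 0.0842 and 0.142 CPM (counts scaled to a common library size, after TMM scaling). Libraries of the same group were not close repeats of each other. Over all 16688 genes tested, the share of genes more than 4-fold apart between the 2 libraries was 5.61% in the fibroblast group, 11.3% in the early group and 13.8% in the late group. Early replicate 1 correlated with late replicate 1 at r = 0.945 and with early replicate 2 at r = 0.939 (Pearson, log2 CPM across genes, which are not independent replicates). Late replicate 2 stood apart with 50054 CPM summed over 10 cardiomyocyte markers, against at most 130.6 CPM in each of the other 5 libraries. Gata4, a cardiac transcription factor, was at 0.168 and 0.324 CPM in fibroblast, 19.8 and 17.8 CPM in early and 44.2 and 112.7 CPM in late libraries. The fibroblast markers Col1a2, Col3a1, Pdgfra and Thy1 had counts in every library, though at unlike levels. Pdgfra was at 514.1 and 329.1 CPM in fibroblast, 38.2 and 530.1 CPM in early and 109.7 and 56.0 CPM in late libraries. Thy1 was at 362.4 and 216.9 CPM in fibroblast, 12.4 and 178.4 CPM in early and 35.4 and 10.5 CPM in late libraries. Of the 10 fibroblast markers listed, 1 was at 0 in early replicate 1. Another, S100a4, was lower in early and in late cells than in fibroblasts (edgeR, adjusted p under 0.05). Xist, the RNA that coats the inactive X chromosome, was at 54.6 and 0.118 CPM in fibroblast, 0.178 and 0.142 CPM in early and 61.2 and 0.337 CPM in late libraries, so the libraries of the fibroblast and of the late group differed in it. Nothing in the labels tells whether the 2 replicates of a group were grown or taken separately. The p-values thus reflect the variation among these libraries alone, and part of it may be technical.

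**Figure D1:**
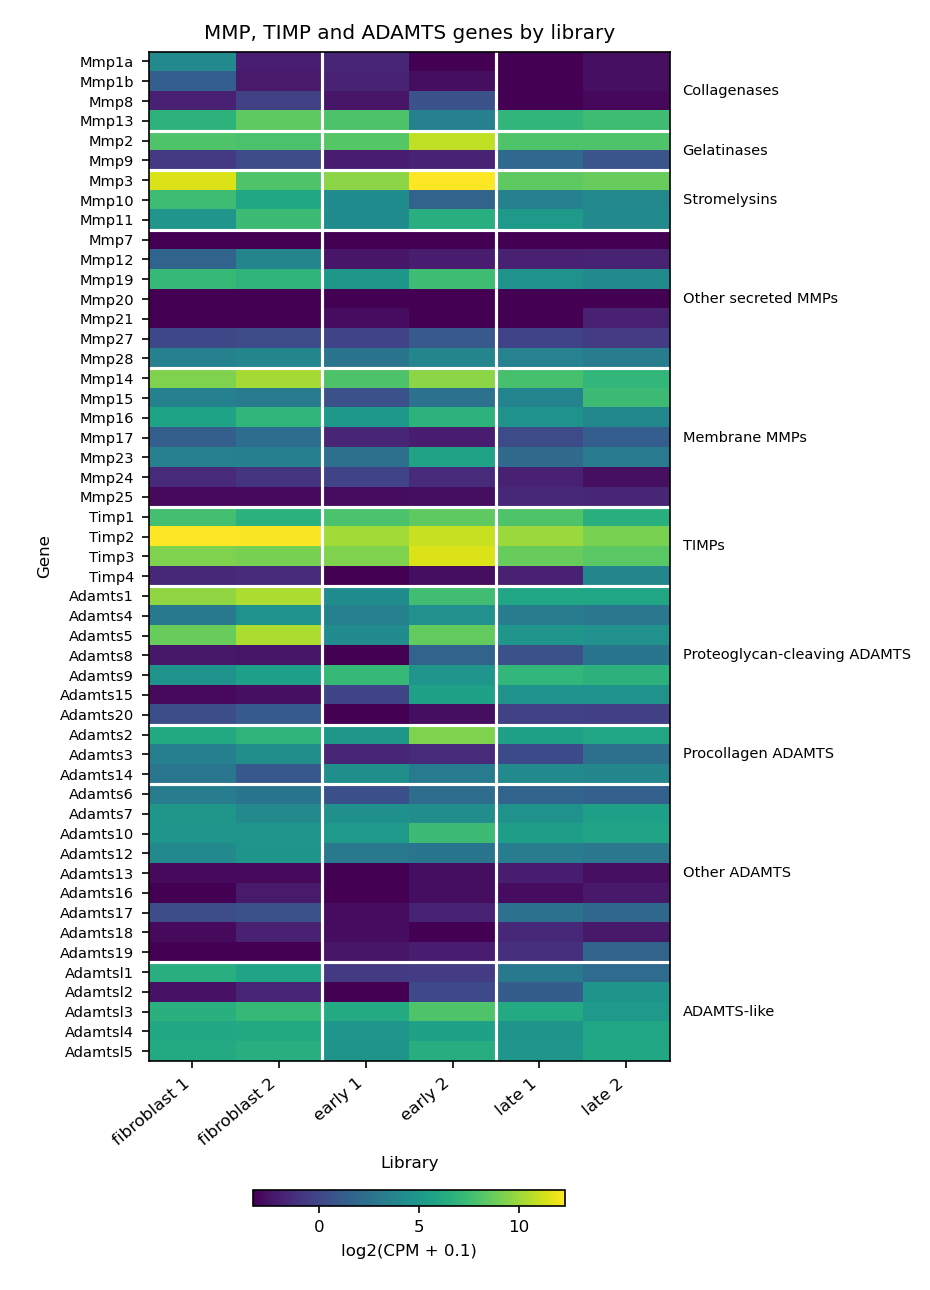
Expression of all 51 genes (rows, grouped by role) in each of the 6 libraries (columns), as log2(CPM + 0.1). Timp2 is bright in both fibroblast libraries, Mmp3 in fibroblast replicate 1 and early replicate 2, and Mmp7 and Mmp20 are dark in all 6 columns.

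Of the 51 genes, 40 passed the filter on low counts and were tested. The 11 that did not pass were Mmp1a, Mmp1b, Mmp7, Mmp20, Mmp21, Mmp24, Mmp25, Timp4, Adamts13, Adamts16 and Adamts18, and they are described by their values. A gene that passed through only the group in which it is high had to differ, so the counts below describe the tested genes and support nothing further about the family. Adamtsl1 was the single member called in any comparison (edgeR quasi-likelihood test, Benjamini-Hochberg adjustment over all genes tested, threshold 0.05). It fell in early and in late cells, each against fibroblasts.

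Early cells against fibroblasts gave 0 members called higher and 1 called lower, where 0.695% of all genes tested were called higher and 0.833% lower. At an unadjusted p under 0.05, 13 of the 40 passed (2 higher, 11 lower), which is 32.5% beside a background of 29.8%. Both early libraries lay above both fibroblast libraries for 7 members (17.5%, background 32.3%) and below them for 15 (37.5%, background 34.4%), and the groups overlapped for 18. The median log2 fold change was -0.33 over the members and 0.00 over all genes tested. DESeq2, run as an alternative, called 1 member higher and 11 lower of the 44 for which it gave an adjusted p, beside backgrounds of 10.5% and 11%. The share that passed at an unadjusted p in either direction was thus near the background. By direction, the members that passed were mostly lower, whereas over all 16688 genes tested 2559 passed higher and 2417 lower.

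Late cells against fibroblasts also gave 0 members called higher and 1 called lower by edgeR, beside backgrounds of 0.641% and 0.779%. At an unadjusted p under 0.05, 15 of the 40 passed (4 higher, 11 lower), or 37.5% beside a background of 32.5%. Both late libraries lay above both fibroblast libraries for 11 members (27.5%, background 35.7%) and below them for 22 (55%, background 32.9%), and 7 overlapped. The median log2 fold change was -0.82 over the members and 0.11 over all genes tested. DESeq2 called 7 members higher and 13 lower, beside backgrounds of 13.3% and 11.6%. Both comparisons use the same fibroblast libraries, so the early and the late values below are not independent of each other. These are bulk libraries, in which fewer cells of a type and less RNA per cell cannot be told apart.

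Between the 2 later stages, late against early, edgeR called 0 members higher and 0 lower, and 0% of all genes tested in either direction. At an unadjusted p under 0.05, 12 of the 40 passed (8 higher, 4 lower), or 30% beside a background of 10.2%. Both late libraries lay above both early libraries for 11 members (27.5%, background 16.1%) and below them for 10 (25%, background 17.6%), and 19 overlapped. DESeq2 called 8 members higher and 1 lower, beside backgrounds of 5.41% and 0.8%. The smallest adjusted p of a member in the edgeR test was 0.256, for Adamtsl1.

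**Figure D2:**
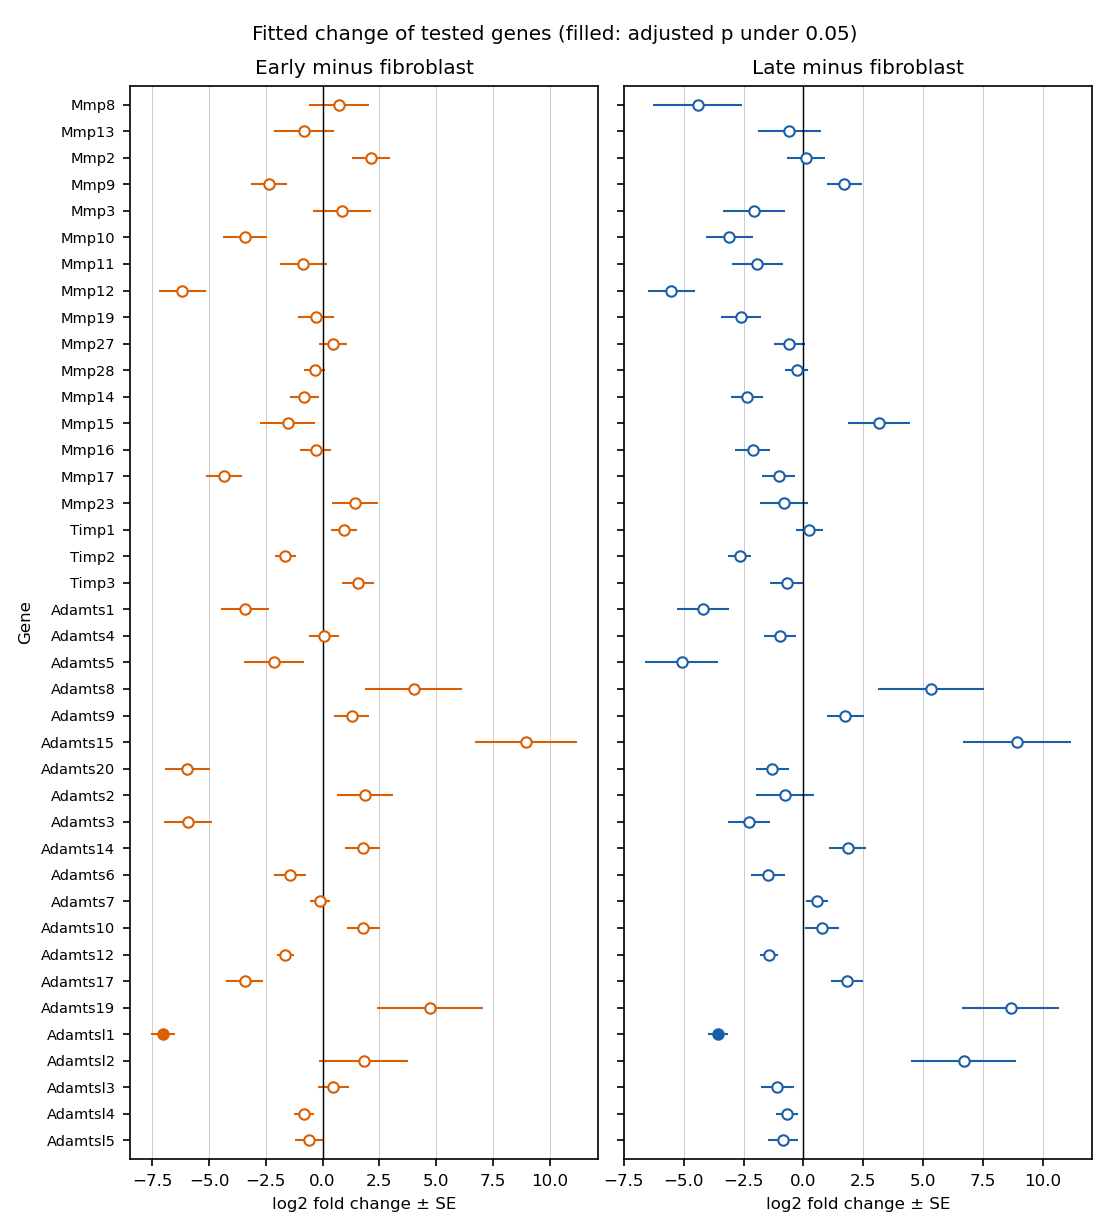
Fitted log2 fold change ± SE of the 40 tested genes (rows) for early minus fibroblast (left) and late minus fibroblast (right), from 2 libraries a group; filled points have an adjusted p under 0.05. Adamtsl1 is the one filled point in each panel, at -7.03 and -3.56, while Adamts15 has the largest positive estimates with long error bars.

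The collagenases, which make the first cut in fibrillar collagens, the stromelysins Mmp3 and Mmp10 and several other secreted MMPs lie side by side in the genome. Chromosome 9 carries 10 Mmp genes between 7272514 and 7699585 (GRCm38, GENCODE M21 gene models), a span of 427.1 kb with no other protein-coding gene between them. Their order is Mmp13, Mmp12, Mmp1b, Mmp3, Mmp1a, Mmp10, Mmp8, Mmp27, Mmp20 and Mmp7. Sequences just upstream of 6 of these genes are printed here because the 6 share a short motif near the start of transcription and yet differed in level in the same libraries. Each line gives 120 bases ending at the base before the start, 5′ to 3′ on the strand of the gene, from the RefSeq promoter table on GRCm38.p6. Capitals mark matches to the binding motif of the transcription factor AP-1, searched as TGANTCA, which is its own reverse complement.
Mmp13: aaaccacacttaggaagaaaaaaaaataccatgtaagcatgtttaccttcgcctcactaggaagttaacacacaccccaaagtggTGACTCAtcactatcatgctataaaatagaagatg
Mmp12: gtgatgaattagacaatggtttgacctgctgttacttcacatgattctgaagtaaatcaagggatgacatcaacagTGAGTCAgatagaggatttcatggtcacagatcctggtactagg
Mmp1b: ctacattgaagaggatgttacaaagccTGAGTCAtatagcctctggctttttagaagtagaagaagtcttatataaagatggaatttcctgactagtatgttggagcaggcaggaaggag
Mmp3: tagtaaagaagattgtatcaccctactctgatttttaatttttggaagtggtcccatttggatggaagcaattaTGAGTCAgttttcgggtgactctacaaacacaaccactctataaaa
Mmp1a: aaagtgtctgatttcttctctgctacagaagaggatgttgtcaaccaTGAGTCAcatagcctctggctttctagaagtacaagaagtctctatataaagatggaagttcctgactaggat
Mmp10: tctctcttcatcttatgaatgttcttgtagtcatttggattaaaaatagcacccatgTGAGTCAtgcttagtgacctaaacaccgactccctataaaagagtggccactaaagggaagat

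The first line comes from chr9:7272394-7272513, the second from chr9:7347254-7347373, the third from chr9:7388027-7388146 on the minus strand, the fourth from chr9:7445702-7445821, the fifth from chr9:7464021-7464140 and the sixth from chr9:7502222-7502341, the other 5 being on the plus strand. Mmp12 has more than 1 start in that table, and the one shown is the start with a match. In windows of 250 bases before to 50 bases after the start, found for 36 of the 51 members in 39 windows, the motif occurred in 8 genes. All 8 belong to the chromosome 9 cluster, the 2 not printed being Mmp20 and Mmp7, and 2 genes of the cluster, Mmp8 and Mmp27, had no match. Of all 32851 promoters in the table, 7.81% held it. The motif of the PEA3 family of ETS factors, searched as AGGAAG and on the other strand as CTTCCT, was in the windows of 15 member genes and in 35.4% of all promoters. A match is a description of the letters and not evidence of a bound site. The windows with the AP-1 motif include Mmp3, among the most abundant members, and Mmp7 and Mmp20, without a single count.

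Mmp13, collagenase-3 and the main interstitial collagenase of mice, was at 109.4 and 343.6 CPM in fibroblast, 245.2 and 11.2 CPM in early and 128.4 and 174.9 CPM in late libraries. The low value was that of early replicate 2 alone, and the groups overlapped in each comparison. Its log2 fold change was -0.82 ± 1.31 (SE) in early cells (edgeR adjusted p = 0.714) and -0.58 ± 1.3 in late cells (0.775), each against fibroblasts. Without fibroblast replicate 2 both estimates turned positive, to 0.23 in early and 0.45 in late cells, and without early replicate 2 the early one was 0.16. Mmp8, the collagenase best known from neutrophils, stayed at or below 1.37 CPM in each of the 6 libraries.

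Mmp1a and Mmp1b are the mouse counterparts of the human interstitial collagenase and are close copies of each other, so the authors' counting could have split reads between them. GENCODE M21 lists Mmp1a as a polymorphic pseudogene and Mmp1b as protein-coding. Mmp1a had 5 and 0 counts in the early libraries, 0 and 2 in the late ones, and 511 and 5 in the fibroblast ones. Fibroblast replicate 1, at 17.2 CPM, therefore stood alone, and the other fibroblast library, at 0.147 CPM, lay below early replicate 1 at 0.223 CPM. Mmp1b had the same pattern, with at most 0.178 CPM in each of 5 libraries, against 2.42 CPM in fibroblast replicate 1. The gene models of Mmp12 and Mmp1b overlap by 157 exonic bases, and the strand setting of the counting is not stated in the labels.

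Mmp3, stromelysin-1, which cuts many matrix proteins and activates other MMPs, was at 2924 and 259.7 CPM in fibroblast, 782.0 and 5011 CPM in early and 355.6 and 406.9 CPM in late libraries. The 2 fibroblast libraries enclosed both late ones and early replicate 1, and only early replicate 2 lay above them. On the log2 scale the fitted difference was 0.86 ± 1.27 in early cells (edgeR adjusted p = 0.691) and -2.06 ± 1.32 in late cells (0.315) against fibroblasts. The late estimate was 0.53 without fibroblast replicate 1, and the early one was -0.02 without fibroblast replicate 2 and -0.99 without early replicate 2. Per kilobase of exon, Mmp3 was the most abundant of the 51 genes in 4 libraries, namely fibroblast replicate 1, both early libraries and late replicate 2.

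Mmp10, stromelysin-2, was at 19.3 and 3.12 CPM in early and 11.5 and 16.7 CPM in late libraries, against 175.4 and 64.2 CPM in fibroblast libraries. Both later groups lay wholly below the fibroblasts, and neither passed the test (edgeR adjusted p = 0.1 in early and 0.108 in late cells). Mmp11, stromelysin-3, was at 28.6 and 168.1 CPM in fibroblast, 19.4 and 89.4 CPM in early and 33.9 and 18.0 CPM in late libraries, overlapping in each comparison. It shares 5.58% of its exon length with Chchd10, a gene on the opposite strand. In both the fibroblast and the early group the higher Mmp11 value belonged to replicate 2, whereas the higher Mmp10 value belonged to replicate 1.

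**Figure D3:**
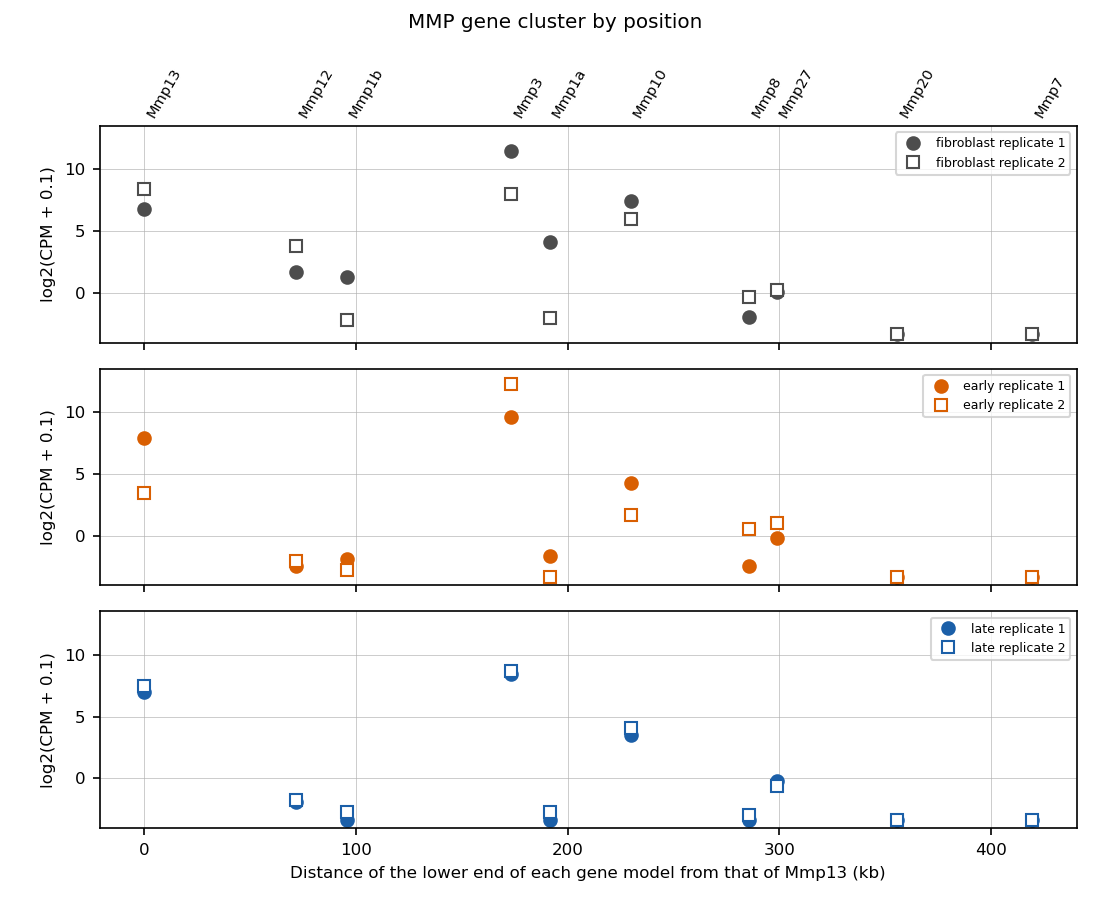
Level of the 10 Mmp genes of the chromosome 9 cluster, as log2(CPM + 0.1), against the distance of each gene model from the start of Mmp13 in kb, with 1 panel a group and 1 symbol a library. Mmp3 and Mmp13 stay high in late libraries, whereas Mmp12, Mmp1a and Mmp1b, which lie between or beside them, are near the bottom of the axis there.

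Mmp12, macrophage elastase, had the largest fitted difference from fibroblasts among the tested secreted MMPs. It was at 0.0891 and 0.142 CPM in the early libraries, against 3.22 and 14 CPM in fibroblast libraries, and the late libraries had 0.167 and 0.197 CPM. All 4 CRISPRa libraries lay below both fibroblast libraries, and the early libraries held 2 and 3 counts, no more than the floor. In the fit, the log2 fold change was -6.17 ± 1.04 in early cells (edgeR adjusted p = 0.0566) and -5.53 ± 0.98 in late cells (0.0594), so neither passed the threshold. Macrophage and leukocyte markers were also lower than in fibroblasts, with 13 of 14 fitted lower in early and 13 in late cells. From early to late cells, 13 of the 14 were fitted higher, with a median log2 fold change of 6.63. In each of these comparisons edgeR called 0 of the 14. Mmp12 differed by 0.64 ± 0.99 from early to late cells (edgeR adjusted p = 0.875). The 14 markers summed to 314.0 and 1295 CPM in fibroblast, 115.5 and 51.1 CPM in early and 71.8 and 277.0 CPM in late libraries. Their defining genes stood lower still in early libraries, where Adgre1, the F4/80 antigen, was at 0 and 0.0473 CPM and Lyz2, macrophage lysozyme, at 1.02 and 7.29 CPM, against 15.8 and 73.8 CPM for Adgre1 and 181.3 and 786.6 CPM for Lyz2 in fibroblasts. Cd14 went the other way, at 110.6 and 40.22 CPM in early and 67.07 and 72.96 CPM in late libraries. It was at 20.25 and 35.39 CPM in fibroblast libraries. In early replicate 1, Cd14 alone made up 110.6 CPM of the sum. Of the 14 markers, 3 were at 0 in early replicate 1, 4 in early replicate 2 and 2 in late replicate 1. Late replicate 2 had Lyz2 at 49.9 CPM, Adgre1 at 8.7 CPM and Mmp12 at 0.197 CPM. Late replicate 1 had 1.29, 0.125 and 0.167 CPM, so for Lyz2 and Adgre1 the rise from early to late cells rests on late replicate 2. The part of these markers in the Mmp12 values was not tested.

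Mmp2, gelatinase A, which is constitutively made by fibroblasts, was at 291.7 and 1848 CPM in the early libraries, against 260.8 and 226.7 CPM in fibroblast libraries, and at 263.8 and 261.8 CPM in late libraries. Both early libraries lay above the fibroblasts, the first by little, and the late values lay just above fibroblast replicate 1. The fitted log2 difference was 2.13 ± 0.83 in early cells (edgeR adjusted p = 0.164) and 0.11 ± 0.80 in late cells (0.933). Without early replicate 2 the early estimate was 0.30. Among the better expressed members, Mmp2 thus had close values in 5 of the 6 libraries.

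Mmp9, gelatinase B, was at 0.537 and 1.15 CPM in fibroblast, 0.134 and 0.189 CPM in early and 3.96 and 1.63 CPM in late libraries. The 3 groups did not overlap, with early lowest and late highest. The log2 fold change was 4.08 ± 0.83 for late against early (edgeR adjusted p = 0.361), -2.36 ± 0.81 for early against fibroblast (0.131) and 1.72 ± 0.72 for late against fibroblast (0.167). The early values are close to the level of 3 counts.

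Among the remaining secreted MMPs, Mmp19 was at 31.2 and 181.1 CPM in early and 26.1 and 16.8 CPM in late libraries, against 141.4 and 117.0 CPM in fibroblast libraries, so that only the late group lay wholly below. Of its exon length, 22.3% is shared with Tmem198b on the opposite strand. Mmp28, epilysin, kept within 6.33 and 14.2 CPM in the 6 libraries, a range shared by all 3 groups. Mmp27 kept within 0.562 and 1.99 CPM, with both late libraries below both fibroblast libraries. Mmp7, matrilysin of glandular epithelia, and Mmp20, enamelysin of forming teeth, had no counts, which allows up to 3 counts in a library.

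Mmp14, the membrane-type enzyme that activates the Mmp2 precursor, was among the 6 most abundant members per kilobase of exon in both fibroblast libraries. It was at 252.7 and 795.2 CPM in early libraries and 223.2 and 132.4 CPM in late libraries, against 624.4 and 1200 CPM in fibroblast libraries. The late libraries lay below both fibroblast libraries, whereas early replicate 2 lay between them. Its log2 fold change was -2.36 ± 0.68 in late cells (edgeR adjusted p = 0.0941) and -0.80 ± 0.65 in early cells (0.455), which was -1.81 without early replicate 2 and -0.19 without early replicate 1. Mmp16, another membrane-type enzyme, was at 25.3 and 16.1 CPM in late libraries, against 55.0 and 124.6 CPM in fibroblast libraries, again without overlap, and at 33.1 and 111.8 CPM in early libraries.

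Mmp15 had its highest value in late replicate 2. It was at 11.5 and 8.71 CPM in fibroblast, 1.38 and 5.54 CPM in early and 13.1 and 168.0 CPM in late libraries. The groups did not overlap, but late replicate 1 was close to the fibroblasts. On the log2 scale the fitted difference was 3.17 ± 1.29 for late against fibroblast (edgeR adjusted p = 0.160), and 0.38 without late replicate 2. For late against early it was 4.71 ± 1.39 (0.407). Endothelial markers were also high in that library, with a sum over 8 genes of 758.6 CPM against 24.4 CPM in late replicate 1 and at most 12 CPM in each other library, and so were the cardiomyocyte markers. The part of either in the Mmp15 value was not tested.

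Mmp17, held to the membrane by a lipid anchor, was at 2.52 and 5.03 CPM in fibroblast, 0.223 and 0.142 CPM in early and 1.17 and 2.5 CPM in late libraries. The early group stood below both others without overlap. In the fit, the log2 fold change was -4.34 ± 0.80 for early against fibroblast (edgeR adjusted p = 0.0607) and 3.30 ± 0.78 for late against early (0.377). Mmp23 was at 5.39 and 52.3 CPM in early and 4.13 and 8.2 CPM in late libraries, against 11 and 10.5 CPM in fibroblast libraries, and early replicate 2 alone was high. Mmp24 and Mmp25 were at or below 0.802 CPM in each library.

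**Figure D4:**
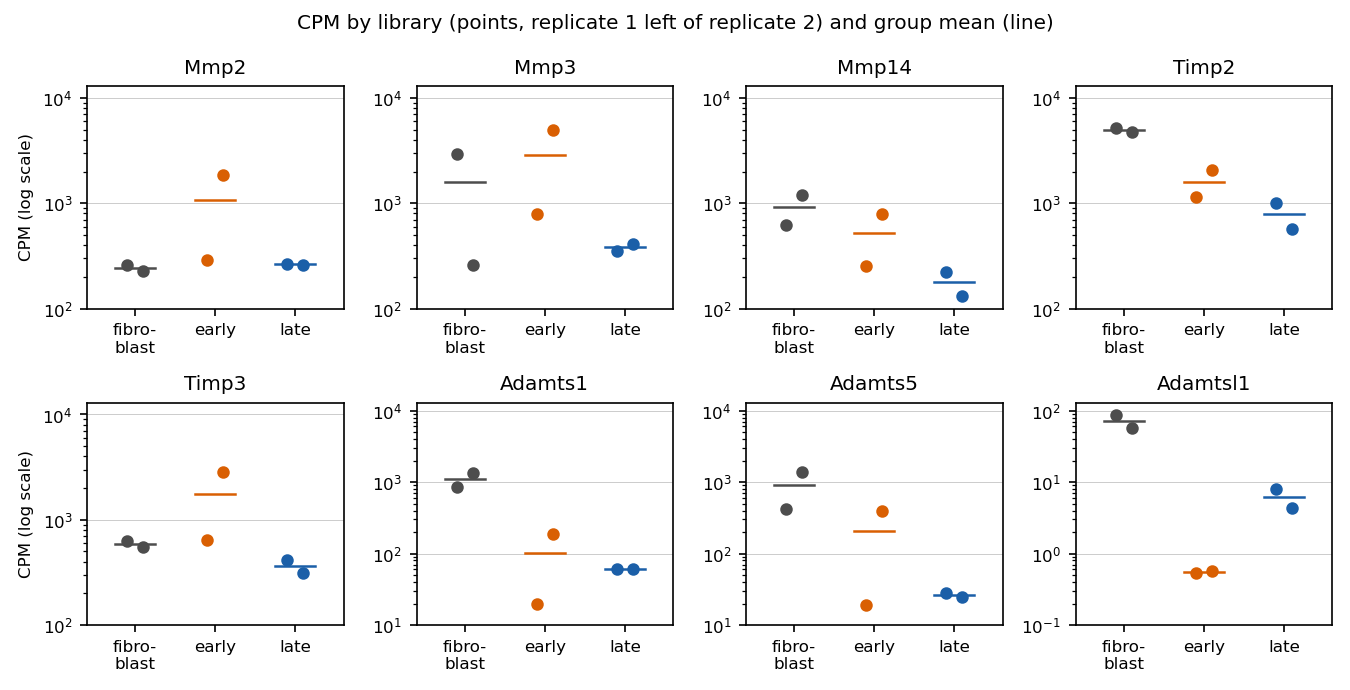
CPM (log scale, ranges differ between panels) of 8 genes in the 3 groups, with 1 point a library, replicate 1 left of replicate 2, and a line at the group mean. Timp2, Adamts1, Adamts5 and Adamtsl1 are lower in all 4 CRISPRa libraries than in both fibroblast libraries, Mmp14 in both late libraries, and Mmp2, Mmp3 and Timp3 are highest in early replicate 2.

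Of the inhibitors, Timp2, which blocks MMPs and also helps Mmp14 to activate the Mmp2 precursor, ranked first or second of all members per kilobase of exon in the 2 fibroblast libraries. It was at 1143 and 2066 CPM in early libraries and 1006 and 569.6 CPM in late libraries, against 5161 and 4796 CPM in fibroblast libraries. All 4 CRISPRa libraries lay below both fibroblast libraries. The fitted log2 difference was -2.66 ± 0.47 in late cells (edgeR adjusted p = 0.0594) and -1.63 ± 0.46 in early cells (0.0939), neither past the threshold.

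Timp3, which binds to the matrix and also inhibits ADAMTS enzymes, was at 639.8 and 2858 CPM in the early libraries, against 624.8 and 550.2 CPM in fibroblast libraries, and at 414.1 and 315.1 CPM in late libraries. Early replicate 2 was high, early replicate 1 was level with the fibroblasts, and both late libraries were below them. The log2 fold change was 1.57 ± 0.70 in early cells (edgeR adjusted p = 0.205) and -0.69 ± 0.69 in late cells (0.511). Without early replicate 2 the early estimate was 0.16. Timp3 lies within Syn3 on the opposite strand and shares 21.3% of its exon length with it. Syn3 itself was at or below 8.52 CPM in each library.

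Timp1, an inducible inhibitor, was at 201.9 and 104.2 CPM in fibroblast, 239.0 and 352.0 CPM in early and 264.6 and 100 CPM in late libraries. Both early libraries lay above the fibroblasts and the late group overlapped them. Its log2 fold change was 0.95 ± 0.58 in early cells (edgeR adjusted p = 0.321) and 0.25 ± 0.57 in late cells (0.776), and the late one was -0.16 without fibroblast replicate 2 and -0.70 without late replicate 1.

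Timp4, the inhibitor best known from the heart, reached 14.7 CPM in late replicate 2, and no other library exceeded 0.265 CPM. It was not tested, since it did not pass the filter, and the other late library had 0.167 CPM. The cardiomyocyte marker Myh6, the alpha heavy chain of cardiac myosin, was at 25359 CPM in the same library, against 25.8 CPM in late replicate 1. The part of cardiomyocytes in the Timp4 value was not tested. Timp4 lies within Syn2, which was at 2.42 CPM in late replicate 2.

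Summed over the 4 Timp genes, Timp2 made up 86.2% and 88.0% of TIMP reads in fibroblast, 56.5% and 39.2% in early and 59.7% and 57.0% in late libraries. Timp3 made up 10.4% and 10.1% in fibroblast, 31.7% and 54.2% in early and 24.6% and 31.5% in late libraries. Per kilobase of exon, Timp2 was the most abundant of all members in fibroblast replicate 2 and Timp1 in late replicate 1. The ratio of summed TIMP to summed MMP levels, both in CPM per kilobase, was 0.804 and 2.02 in fibroblast, 0.928 and 0.355 in early and 1.52 and 0.663 in late libraries. The ratio overlapped between the groups in all 3 comparisons.

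Adamts1 and Adamts5, which cut versican and aggrecan, are neighbours on chromosome 16, 53.1 kb apart on the same strand with no other protein-coding gene between them. Adamts1 was at 19.8 and 185.8 CPM in early libraries and 60.3 and 60.1 CPM in late libraries, against 840.7 and 1354 CPM in fibroblast libraries. Adamts5 was at 19.1 and 388.4 CPM in early libraries and 28.3 and 24.3 CPM in late libraries, against 416.8 and 1377 CPM in fibroblast libraries. Both genes were lower in all 4 CRISPRa libraries than in both fibroblast libraries, with early replicate 2 nearest to them.

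The log2 fold change of Adamts1 was -4.19 ± 1.09 in late cells (edgeR adjusted p = 0.0820) and -3.42 ± 1.05 in early cells (0.109). That of Adamts5 was -5.09 ± 1.53 in late cells (0.1) and -2.14 ± 1.34 in early cells (0.337). With 1 library left out the early estimates moved most without early replicate 2, to -5.75 for Adamts1 and -5.51 for Adamts5, and that of Adamts5 was -1.04 without fibroblast replicate 2. Together the pair made up 85.4% and 90.4% of reads on Adamts genes in fibroblast, 12.3% and 37.4% in early and 21.6% and 19.6% in late libraries. Summed ADAMTS levels were 314.7 and 1536 CPM in early libraries and 411.5 and 430.1 CPM in late libraries, against 1473 and 3022 CPM in fibroblast libraries. The late sums lay below both fibroblast sums, and early replicate 2 lay between these.

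Adamts15 and Adamts8, also enzymes of this type, lie next to each other on chromosome 9, 20.1 kb apart and on opposite strands. Adamts15, which cuts aggrecan and versican, was at 0.846 and 50.3 CPM in early libraries and 25.3 and 24.9 CPM in late libraries, against 0.0336 and 0.0588 CPM in fibroblast libraries, which hold 3 counts in all. Every CRISPRa library lay above both fibroblast libraries, with late libraries close together and the early ones far apart. The ratio of summed counts, scaled for library size, was 532 in late cells (exact 95% interval 182 to 2582, counting error only) and 528 in early cells (180 to 2563). The early ratio rests on early replicate 2, and without that library the fitted early log2 fold change was 4.10, against 8.96 with it. The difference did not pass the test (edgeR adjusted p = 0.0797 in late and 0.0814 in early cells).

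Adamts8 was at 0 and 3.17 CPM in early libraries and 1.38 and 6.57 CPM in late libraries, against 0.101 and 0.0883 CPM in fibroblast libraries. Late libraries and early replicate 2 were high, and early replicate 1 had no count. On the log2 scale the fitted difference was 5.34 ± 2.21 in late cells (edgeR adjusted p = 0.165) and 4.01 ± 2.13 in early cells (0.268). Without early replicate 2 the early estimate was -4.53, and without late replicate 2 the late one was 3.80. Of its exon length, 10.6% is shared with an antisense transcript.

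Adamts9, which with its relatives clears versican in the developing mouse heart, was at 142.9 and 28.4 CPM in early libraries and 132.1 and 104.5 CPM in late libraries, against 25.1 and 45.1 CPM in fibroblast libraries. Both late libraries and early replicate 1 were high, and early replicate 2 lay between the fibroblast values. Adamts4, aggrecanase-1, was at 11.8 and 24.0 CPM in early and 10 and 7.47 CPM in late libraries, against 7.96 and 26.0 CPM in fibroblast libraries, a complete overlap in the early comparison. Adamts20, known from pigment patterning in mice, was at 0 and 0.0473 CPM in early and 0.709 and 0.674 CPM in late libraries, against 1.28 and 2.15 CPM in fibroblast libraries, with the early group lowest.

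Among the ADAMTS enzymes that trim procollagens, Adamts2, the main procollagen N-proteinase of skin, was at 31.5 and 646.3 CPM in the early libraries, against 73.9 and 113.7 CPM in fibroblast libraries, and at 48.0 and 62.7 CPM in late libraries. The 2 early libraries enclosed the fibroblasts, and the late libraries lay below them. In the fit, the log2 fold change was 1.85 ± 1.24 in early cells (edgeR adjusted p = 0.365) and -0.76 ± 1.21 in late cells (0.679). Without early replicate 2 the early estimate was -1.54. Adamts14 was at 22 and 8.14 CPM in early and 17.5 and 14.6 CPM in late libraries, against 7.02 and 1.88 CPM in fibroblast libraries, above them in all 4.

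Adamts3, which activates the lymphatic growth factor Vegfc together with Ccbe1, was at 0.223 and 0.284 CPM in early libraries and 1.04 and 5.39 CPM in late libraries, against 10.6 and 20.9 CPM in fibroblast libraries. The groups did not overlap, and early cells were lowest. The fitted log2 difference was -5.93 ± 1.07 in early cells (edgeR adjusted p = 0.0601), -2.28 ± 0.88 in late cells (0.146) and 3.65 ± 0.98 for late against early (0.385). Ccbe1 itself fell in late cells, with a log2 fold change of -5.57 ± 0.45 (edgeR adjusted p = 0.0304). It was at 1.63 and 2.28 CPM there, against 113.5 and 73.0 CPM in fibroblast libraries, and early libraries had 28.4 and 17.6 CPM.

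Of the other ADAMTS genes, Adamts17, which in humans is linked to fibrillin disorders, was at 1.21 and 1.38 CPM in fibroblast, 0.0445 and 0.189 CPM in early and 5.54 and 3.65 CPM in late libraries. The 3 groups did not overlap, with early lowest and late highest, the same order as for Mmp9. The log2 fold change was 5.26 ± 0.84 for late against early (edgeR adjusted p = 0.289), -3.43 ± 0.80 for early against fibroblast (0.0765) and 1.82 ± 0.68 for late against fibroblast (0.138). Adamts10, a partner of fibrillin, was at 33.9 and 168.5 CPM in early and 43.4 and 55.3 CPM in late libraries, against 29.8 and 28.3 CPM in fibroblast libraries, above them in all 4.

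Adamts12, which cuts cartilage oligomeric matrix protein, was at 7.80 and 6.58 CPM in early and 9.34 and 7.19 CPM in late libraries, against 16.9 and 27.8 CPM in fibroblast libraries, below them in all 4. Adamts6 was at 1.34 and 4.69 CPM in early and 3.17 and 2.70 CPM in late libraries, against 9.70 and 6.77 CPM in fibroblast libraries, also below them in all 4. Adamts7 kept within 16.3 and 46.6 CPM in the 6 libraries. Adamts19, linked to heart valve disease in humans, had no counts in either fibroblast library, 0.0891 and 0.142 CPM in early and 0.334 and 3.26 CPM in late libraries. Against a floor of 3 counts over both fibroblast libraries, its late level was at least 44.2-fold higher (edgeR adjusted p = 0.0826). Late replicate 2 held 116 of the late counts and late replicate 1 held 8, so the bound rests mostly on replicate 2. With 0 counts in fibroblast and 2 and 3 in early libraries, the gene passed the filter through the late group alone. Adamts13, Adamts16 and Adamts18 stayed at or below 0.25 CPM in each library.

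Adamtsl1, also called punctin, is an ADAMTS-like protein deposited in the matrix. Its gene spans 85514172 to 86428385 on chromosome 4 (GRCm38). It was at 0.535 and 0.568 CPM in early libraries and 7.96 and 4.35 CPM in late libraries, against 88.3 and 56.8 CPM in fibroblast libraries. The 3 groups were clear of one another, with early lowest, and the early libraries nearly equal. It fell in early cells (log2 fold change -7.03 ± 0.52, edgeR adjusted p = 0.0210) and in late cells (-3.56 ± 0.43, 0.0465), lower in 2 of 2 libraries each. Late against early, the log2 fold change was 3.47 ± 0.45 (0.256).

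Either call was lost when 1 fibroblast library was left out, which ended every call in the whole table too. Without fibroblast replicate 1 the adjusted p was 0.164 in early and 0.274 in late cells, and without fibroblast replicate 2 it was 0.160 and 0.219, while the fold changes stayed between -7.31 and -6.69 in early and between -4.15 and -3.19 in late cells over all libraries left out in turn. The early call was also lost without early replicate 1 (adjusted p = 0.0859) and the late one without late replicate 2 (0.0757).

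The other 4 ADAMTS-like genes gave no call. Adamtsl2, which in humans is linked to a disorder of fibrillin microfibrils and of heart valves, was at 0 and 0.994 CPM in early and 2.33 and 27.5 CPM in late libraries, against 0.0672 and 0.206 CPM in fibroblast libraries. Both late libraries were high, the second most. Its log2 fold change was 6.71 ± 2.19 for late against fibroblast (edgeR adjusted p = 0.114) and 4.90 ± 2.0 for late against early (0.499). Without late replicate 2, the library with the high cardiomyocyte and endothelial markers, they were 4.02 and 2.23, and the part of those markers was not tested. Adamtsl3, punctin-2, was at 75.9 and 256.5 CPM in early and 77.5 and 35.5 CPM in late libraries, against 97.5 and 142.0 CPM in fibroblast libraries, and the late libraries were below. Adamtsl4 kept within 27.3 and 73.5 CPM in the 6 libraries, and both later groups lay wholly below the fibroblasts. Adamtsl5 kept within 27.1 and 92.3 CPM, with the late libraries below the fibroblasts and the early ones overlapping them.

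Among these genes the 2 early libraries differed most often, whereas over all genes the late libraries did. Of the 40 tested members, 20 (50%) were more than 4-fold apart between the 2 early libraries, beside 11.3% of all genes tested. In the late group 6 (15%, background 13.8%) and in the fibroblast group 4 (10%, background 5.61%) were as far apart. Adamts20 is among the early ones on 0 and 1 counts, and without members at or under the floor in both libraries the early number is 19 and the late number 5. In 17 of the 20, early replicate 2 was higher, and the 3 with early replicate 1 higher were Mmp10, Mmp13 and Adamts9. Early replicate 2 is the library called partially reprogrammed. Its fibroblast markers, summed over 10 genes, were also the highest at 12429 CPM, against 2883 CPM in early replicate 1, 2715 and 3254 CPM in late and 5479 and 7173 CPM in fibroblast libraries. Among them Col3a1, a fibrillar collagen, was at 17.0 and 3888 CPM in the early libraries, 595.6 and 898 CPM in the late ones and 1077 and 1300 CPM in the fibroblast ones. In early replicate 2, the collagens Col1a1, Col1a2 and Col3a1 held 3445, 3258 and 3888 CPM of the sum. Thy1, at 178.4 CPM there, lay below both fibroblast libraries, and Pdgfra, at 530.1 CPM, lay above them. The part of the fibroblast markers in the values of the members was not tested.

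Early replicate 1 was nearer to both late libraries than early replicate 2 was. Of the 40 members, 11 (27.5%) were more than 4-fold apart between early replicate 1 and late replicate 1, beside 9.37% of all genes, and 16 (40%) between early replicate 2 and late replicate 1, beside 11.3%. Against late replicate 2 the counts were 11 for early replicate 1, beside 17.4% of all genes, and 23 for early replicate 2, beside 19.4%. Against fibroblast replicate 1, 19 members were as far apart in early replicate 1 (background 23.3%) and 19 in early replicate 2 (20%). Against fibroblast replicate 2 they were 20 in early replicate 1 (25%) and 22 in early replicate 2 (20.7%). The 6 late members more than 4-fold apart were higher in late replicate 2, namely Adamts3, Adamts8, Adamts19, Adamtsl2, Mmp15 and Mmp8, the last on 0 and 1 counts.

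**Figure D5:**
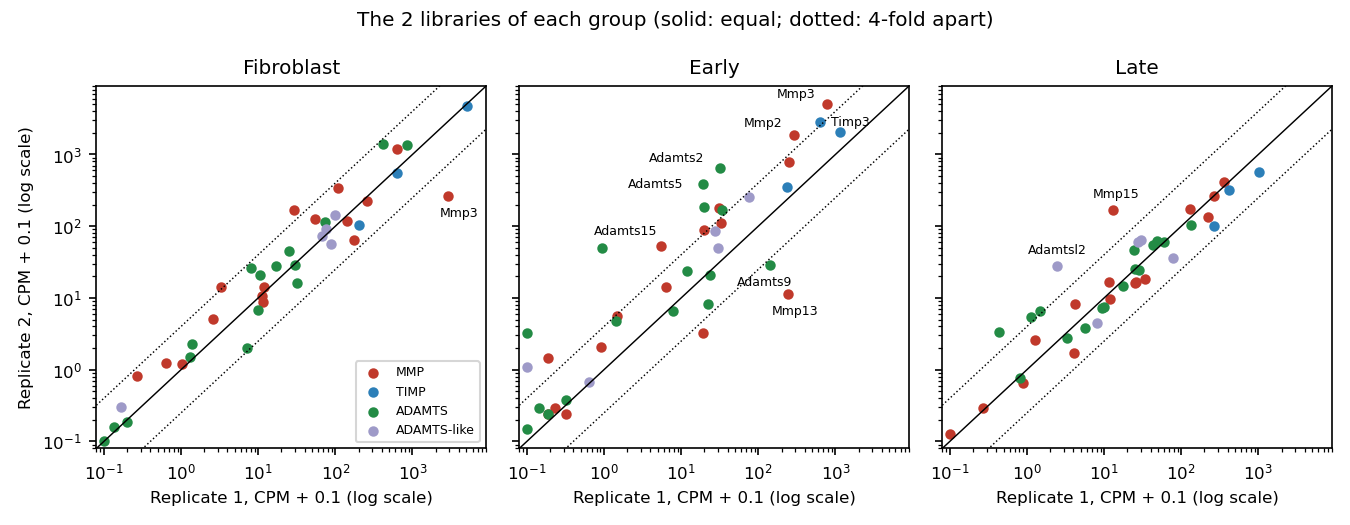
The 40 tested genes by their level in replicate 2 against replicate 1 of the same group (CPM + 0.1, log scale on both axes), coloured by family; the solid line marks equal levels and dotted lines a 4-fold difference. Most points outside the dotted lines are in the early panel, above the upper line; of the 20 early genes more than 4-fold apart, those near the lower left corner can fall inside the lines because of the added 0.1.

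Genes that act with the family were read from lists of activators, other inhibitors, receptors, substrates and related proteases. Of the 9 tested activators of the plasmin and proprotein systems, 1 was called. Over all genes tested, 0.833% were called lower in early and 0.779% in late cells. Plau, urokinase, which generates plasmin and thereby activates MMP precursors, fell in early cells (log2 fold change -4.0 ± 0.41, edgeR adjusted p = 0.0332) and in late cells (-4.19 ± 0.42, 0.0349). It was at 5.35 and 6.53 CPM in early and 6.59 and 3.88 CPM in late libraries, against 115.3 and 74.9 CPM in fibroblast libraries, with no overlap.

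Of 10 other protease inhibitors and 9 receptors and inducers tested, edgeR called 0 in early and 0 in late cells. The inhibitor with the smallest adjusted p was Serpine2, which blocks thrombin, plasmin and urokinase, at 16.6 and 61.1 CPM in early and 108.2 and 44.8 CPM in late libraries, against 1530 and 1055 CPM in fibroblast libraries (edgeR adjusted p = 0.0566 in early and 0.0649 in late cells). At an unadjusted p under 0.05, 4 of the inhibitors passed in early and 4 in late cells, and DESeq2 called 4 and 3. Of all genes, 29.8% and 32.5% passed at an unadjusted p, and DESeq2 called 21.5% and 24.9%. These lists are short and were chosen with earlier results of these data known. The shares are thus not read as a result about the inhibitors, or about the receptors and substrates that follow. Of the receptors and inducers, 2 passed at an unadjusted p in early and 4 in late cells, and DESeq2 called 1 and 3.

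Of 17 tested substrates, edgeR called 1 higher in late cells, beside 0.641% of all genes, and 0 in early cells. In early cells 5 passed at an unadjusted p under 0.05 and DESeq2 called 4. Fbn2, the fibrillin of developing microfibrils, rose by 6.04 ± 0.78 on the log2 scale in late cells (edgeR adjusted p = 0.0468), with 74.5 and 29.5 CPM there, against 0.470 and 1.09 CPM in fibroblast libraries. Versican (Vcan), the substrate of Adamts1, Adamts5 and Adamts9, was at 95.8 and 54.6 CPM in late libraries, against 226.5 and 206.4 CPM in fibroblast libraries, below them in both and without passing the test (edgeR adjusted p = 0.0898).

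Among the 10 membrane-bound ADAM proteases, relatives that release proteins from the cell surface, 2 fell in early cells and 1 in late cells. Over all genes tested, edgeR called 0.833% lower in early and 0.779% lower in late cells. At an unadjusted p under 0.05, 6 of the 10 passed in early and 5 in late cells, and DESeq2 called 6 and 5. These shares were above the backgrounds, 29.8% and 32.5% at an unadjusted p and 21.5% and 24.9% in DESeq2. The list was chosen with earlier results of these data known, so the excess supports nothing about these proteases as a class. Adam8 was at 2.81 and 1.70 CPM in early and 4.84 and 4.41 CPM in late libraries, against 82.7 and 87.4 CPM in fibroblast libraries. It fell in early cells (log2 fold change -5.23 ± 0.35, edgeR adjusted p = 0.0198) and in late cells (-4.20 ± 0.33, 0.0304). Adam33 fell in early cells (-5.24 ± 0.49, 0.0275), with 1.43 and 0.899 CPM, against 49.2 and 39.1 CPM in fibroblast libraries, and its late adjusted p was 0.0556. Adam8 is also expressed by leukocytes, whose markers are given beside Mmp12, and their part in its values was not tested.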

How the data were processed

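Polyadenylated RNA of 6 libraries was sequenced. The deposited file holds raw read counts per Ensembl gene, made by the authors and not normalized. The submitters' processing notes name Trimmomatic 0.36, STAR 2.5.2b, featureCounts, Subread 1.5.2 and the build GRCm38; the annotation release, the strand setting and the handling of multimapping reads were not named in the sources used here, so close paralogs and overlapping genes carry uncertain counts. All 6 columns were assigned to samples. The names of the early and late columns are not sample titles: the abbreviation for induced progenitors was read as late and that for fibroblasts with an added c as early. If that reading were wrong, early and late values would change places.

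Symbols, positions and exon lengths came from GENCODE M21 and promoter sequences from RefSeq. In R 4.3.3, edgeR 4.0.16 kept 16688 genes with its default expression filter, scaled libraries by TMM and fitted a robust quasi-likelihood model to the 3 group means (3 residual degrees of freedom, common coefficient of variation 48.6%). P-values were Benjamini-Hochberg adjusted over all genes tested, and a gene is called at an adjusted p under 0.05. The SE of a fold change was computed from its size and its F statistic. The script was tested on simulated data. CPM are counts scaled to a common library size after TMM.

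The alternatives were RLE and total-count scaling, DESeq2 1.42.0, no filter, fits of only the 2 groups compared, a replicate block and each library left out. Every member could be named with its values. Fold changes are given for members called in any comparison, the 8 largest per comparison among those with a mean of at least 1 CPM, and Mmp2, Mmp3, Mmp9, Mmp13, Mmp14, Timp1, Timp2, Timp3, Adamts1, Adamts2 and Adamts5. From each list of partner genes, the 3 with the smallest adjusted p and any called gene could be named. The test of Mmp10, the count ratio of Adamts19 and the overlapping neighbours of members were chosen after their values were seen. The members and all lists were chosen with earlier results of these data known. Intervals and floors cover counting error only.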

Additional observations from a re-analysis of the deposited data

How the results depend on the processing

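Main counts of members called were 0 higher and 1 lower in early cells, 0 and 1 in late cells, each against fibroblasts, and 0 and 0 in late against early cells. RLE scaling left all of these counts as they were. With total-count scaling the counts were 0 and 4 in early and 0 and 1 in late cells; that scaling moved the median log2 fold change of all genes to 0.17 in early and 0.27 in late cells. DESeq2 called 1 and 11, 7 and 13, and 8 and 1. Without a filter the counts were 0 and 8, 1 and 3, and 3 and 0, and with only the 2 groups compared they were 0 and 5, 1 and 4, and 0 and 0. Over all genes the calls also rose, in early cells to 2337 without a filter and 1469 with only the 2 groups compared, against 255 as reported. The cause of these shifts was not tested.

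Leaving out 1 library at a time gave 0 to 1 higher and 0 to 3 lower in early cells, 0 to 2 and 0 to 4 in late cells, and 0 to 2 and 0 to 0 in late against early cells. Estimates that changed sign when 1 library was left out ranged as follows, early against fibroblast: Adamts2 from -1.54 to 2.79, Adamts8 from -4.53 to 5.01, Adamtsl2 from -5.06 to 2.81, Mmp13 from -4.34 to 0.23 and Mmp3 from -0.99 to 3.47. Late against fibroblast they were Mmp13 from -1.20 to 0.45, Mmp2 from -0.0051 to 0.19, Mmp3 from -2.96 to 0.53 and Timp1 from -0.70 to 0.79. Late against early they were Adamts1 from -1.66 to 1.54, Adamts15 from -1.04 to 4.81, Adamts2 from -3.58 to 0.74, Adamts5 from -3.91 to 0.40, Adamts8 from -0.20 to 9.81 and Mmp13 from -0.77 to 3.72. Of 717 single-gene values for 20 named members under all alternatives, 636 kept direction and side of the threshold, 55 newly passed it, 7 no longer did and 19 changed sign.

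Same-numbered libraries deviated together at r = 0.122 (fibroblast and early), 0.238 (fibroblast and late) and 0.0859 (early and late), and no label ties the numbers to a shared batch, so they were not taken as pairs. A fit with a replicate block called 0 higher and 1 lower in early cells, 0 and 0 in late cells, and 0 and 0 in late against early; all genes called in early cells numbered 26 with the block and 255 without it. Under the block the late adjusted p of Adamtsl1 was 0.0671 (edgeR) and the late against early estimate of Adamts15 was 1.52. With 2 libraries a group, low counts and the spread between libraries limit what could be called.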
